A study of Mus musculus with 24 samples.

Results

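The mitochondrial ribosomal protein genes are the nuclear genes, named Mrpl or Mrps, for protein subunits of the ribosome that works inside mitochondria. They were taken as the rows of the count table that are protein coding and whose symbol is Mrpl or Mrps followed by a number and at most 1 further letter, a rule that uses no measured value. It found 77 of the 43346 genes of the table, 50 in the large subunit, 26 in the small subunit, and Mrps36, which carries a small-subunit name but is now placed in the 2-oxoglutarate dehydrogenase complex. All 77 passed the filter on low counts, which left 17773 genes to test.

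The study sequenced poly(A) RNA of the gastrocnemius, a calf muscle, from C57BL6 mice of both sexes. Mice aged 7 weeks received LLC1 cells, a mouse lung carcinoma line, or the vehicle PBS, and muscle was taken 3 weeks after the subcutaneous injection. The groups were female vehicle, female LLC1, male vehicle and male LLC1, with 6 libraries each, and no other treatment or allele is named for any of them. The tumour is a transplanted line growing under the skin, so the muscle was exposed to it at a distance. Titles number the mice as in 1-4 or 2-5. Each library was taken as 1 mouse, which the titles imply and no label states, so p-values reflect how these libraries vary, which may be technical. Each group ran on a lane of its own, and lane and group cannot be told apart.

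The mitochondrial ribosome translates only the messages of the mitochondrial genome, which encode core subunits of the respiratory chain and of ATP synthase. Its RNAs come from the mitochondrial genome, whereas all of its proteins are encoded in the nucleus, made in the cytosol and imported. About its core of proteins shared with bacterial ribosomes lie many that exist only in mitochondria, and the factors NRF1 and GABP are known activators of nuclear genes for mitochondrial proteins. Skeletal muscle depends on this ribosome because its oxidative capacity rests on respiratory subunits made there.

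Libraries held 26.18 to 47.36 mega-counts (M). The 77 genes took 0.201% to 0.275% of a library's counts, and single genes held 6577 (Mrps6) to 116928 (Mrpl42) counts over the 24 libraries. Levels below are CPM (counts for each mega-count of library size after TMM scaling), and changes are log2 fold changes with the standard error (SE) of edgeR's quasi-likelihood test. A gene was called, and is said to have risen or fallen, at a Benjamini-Hochberg adjusted p under 0.05 over all 17773 genes in edgeR, and calls by other tools are named as such. The 37 mitochondrial-encoded genes, the ribosome's own RNAs among them, summed to 0 counts, so the proteins' RNA partners and the ribosome's products were not measured. Muscle fibre markers summed to 118850 CPM or more in every library, and with LLC1 1 of 9 fell in females and 2 of 9 in males (medians -0.12 and -0.27). Neutrophil markers (9 of 9) and erythroid markers (7 of 7) rose with LLC1 in both sexes. Summed neutrophil markers went from 1.90 to 3.46 CPM in female vehicle to 64.5 to 171 CPM in female LLC1 mice, and from 1.34 to 3.94 CPM to 63.9 to 179 CPM in males. Of 6 markers of fibro-adipogenic progenitors, connective tissue cells of muscle, 3 fell and 1 rose in females (median -0.64), and 4 fell and 1 rose in males (median -0.90). Their sum went from 1007 to 2487 CPM in female vehicle to 637 to 1469 CPM in female LLC1 mice, and from 1441 to 3004 CPM to 884 to 1102 CPM in males. The part of these cells in the results below was not tested. Erythroid markers reached 19990 CPM in female LLC1 mouse 2-4 against 4295 CPM or less elsewhere, and without that mouse 13 of the 77 genes fell in females, as with it. Epithelial markers of carcinoma cells summed to 0.955 to 3.37 CPM in female LLC1 and 1.38 to 3.76 CPM in female vehicle mice. In males they summed to 0.643 to 2.64 CPM with LLC1, highest in mouse 1-5, against 0.615 to 1.21 CPM with vehicle. Only 3 of the 5 were tested and 0 were called in either sex by edgeR, with medians of 0.12 in females and 0.67 in males, and their part in the results was not tested. In bulk muscle, fewer cells of a type and less RNA per cell cannot be told apart.

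The promoters of 4 genes are printed, those with the smallest p in males among the genes with a RefSeq window, 1 that rose (Mrps18b) and 3 that fell (Mrpl48, Mrpl39, Mrpl45). Each runs 5′ to 3′ on the strand of its gene, from 250 bases before to 50 after the RefSeq start (build GRCm38.p6). Capitals mark matches, on either strand, to GCGCATGCG, the core of the NRF1 motif, or CCGGAAG, the core bound by GABPA and other ETS factors.
Mrps18b, chr17:35916391-35916690, minus strand: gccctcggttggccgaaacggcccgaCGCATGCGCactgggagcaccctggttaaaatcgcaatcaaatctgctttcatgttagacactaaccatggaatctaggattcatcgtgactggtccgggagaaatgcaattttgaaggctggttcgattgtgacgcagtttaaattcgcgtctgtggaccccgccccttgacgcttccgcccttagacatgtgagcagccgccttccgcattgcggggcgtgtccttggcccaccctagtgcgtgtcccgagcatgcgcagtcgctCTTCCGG
Mrpl48, chr7:100608252-100608551, minus strand: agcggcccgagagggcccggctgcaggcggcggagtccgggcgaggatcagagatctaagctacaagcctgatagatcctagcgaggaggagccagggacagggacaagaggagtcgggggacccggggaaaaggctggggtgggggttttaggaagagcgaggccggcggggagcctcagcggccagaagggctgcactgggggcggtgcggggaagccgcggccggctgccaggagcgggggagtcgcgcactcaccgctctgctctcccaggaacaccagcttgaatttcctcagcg
Mrpl39, chr16:84735195-84735494, minus strand: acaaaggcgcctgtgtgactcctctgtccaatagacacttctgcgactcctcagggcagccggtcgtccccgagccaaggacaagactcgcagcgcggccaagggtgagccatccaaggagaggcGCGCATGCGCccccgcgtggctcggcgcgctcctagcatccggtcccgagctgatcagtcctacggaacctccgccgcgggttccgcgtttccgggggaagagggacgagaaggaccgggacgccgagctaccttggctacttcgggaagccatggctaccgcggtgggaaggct
Mrpl45, chr11:97315466-97315765, plus strand: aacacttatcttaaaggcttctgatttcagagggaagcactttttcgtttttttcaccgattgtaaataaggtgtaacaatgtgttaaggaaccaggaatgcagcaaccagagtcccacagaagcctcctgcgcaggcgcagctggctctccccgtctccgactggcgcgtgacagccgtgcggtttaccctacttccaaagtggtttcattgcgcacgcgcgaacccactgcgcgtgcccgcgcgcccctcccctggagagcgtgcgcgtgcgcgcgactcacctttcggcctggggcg
The Mrps18b window held both motifs, 1 near each end. The capitals of Mrpl39 are a pair of overlapping NRF1 matches, 1 on each strand. No match was found in the Mrpl45 window or in this window of Mrpl48, which has 4 windows in the table. Of the 77 genes 68 had a window, and 7 of these (10.3%) held the NRF1 letters against 1.95% of all 27025 genes with a window. The ETS letters stood in 25 of the 68 (36.8%) against 9.93% of all genes, and both motifs in 3. Of the genes with a window that fell averaged over the sexes, 1 of 22 held the NRF1 letters, against 5 of 43 that were not called and 1 of 3 that rose. The ETS letters were not split by call, and a link of either motif to direction was not tested.

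Levels per length differed widely among genes that encode parts of the same particle. Mrpl42 stood far above the rest at a mean of 202 CPM per kb of listed gene length, followed by Mrps16 (42.9), Mrpl53 (42.6), Mrpl12 (41.5) and Mrps28 (39.2). The lowest were Mrps35 (1.78), Mrps10 (2.58) and Mrps22 (2.69), around a median of 12.8 CPM per kb. The listed lengths include long annotated exons, 8079 bases for Mrps10 against 566 for Mrps16, so part of this order can come from the annotation. Mrpl53 lies for 88.0% of its exon length over Ccdc142, and its level may hold reads of that gene.

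With LLC1 against vehicle, averaged over the sexes, 25 of the 77 genes fell and 4 rose. The background of that comparison was 20.2% of all tested genes lower and 21.2% higher, against 32.5% and 5.19% of the mitochondrial ribosomal protein genes. Their median log2 fold change was -0.10, with 56 of 77 below 0, and the median over all genes was -0.00. The genes that fell with the smallest p were Mrpl48, Mrpl45, Mrpl19, Mrpl39, Mrpl12 and Mrpl42, all of the large subunit. Averaged over the sexes, each of these 6 was still called when any 1 of the 24 libraries was left out. The 4 that rose were Mrps18b (0.24, SE 0.06, edgeR adjusted p = 0.0015), Mrps30 (0.21, SE 0.07, adjusted p = 0.018), Mrpl41 (0.31, SE 0.11, adjusted p = 0.030) and Mrpl38 (0.12, SE 0.05, adjusted p = 0.043). The calls of Mrps18b and Mrps30 held without each single library. That of Mrpl41 was lost in 4 of the 24 leave-outs and by limma-voom (0.23). That of Mrpl38 was lost in 9 of them, with upper-quartile factors (0.09), without the filter on low counts (0.13) and by limma-voom (0.08). Without female LLC1 mouse 2-5 or male LLC1 mouse 1-5 neither was called, and 2 genes rose.

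Mrpl48 (chr7:100545751-100608297) encodes a mitochondria-specific protein of the central protuberance, the part of the large subunit that faces the head of the small subunit. It measured 36.3, 43.4 and 45.6 CPM (lowest, median, highest) in female vehicle and 29.7, 31.7 and 38.2 CPM in female LLC1 mice. In males it measured 37.5, 39.8 and 42.8 CPM with vehicle and 29.1, 31.0 and 37.9 CPM with LLC1. In each sex 5 of 6 LLC1 mice lay below every vehicle mouse, and the groups met only through the highest LLC1 mouse. Mrpl48 fell by 0.36 in females (SE 0.08, edgeR adjusted p = 0.0041) and by 0.32 in males (SE 0.08, adjusted p = 0.0028), and neither call was lost when any 1 library was left out. Its annotated pseudogene Mrpl48-ps, with 1048 counts in all, also fell in females, by 0.70 (adjusted p = 0.016), and reads of the pair may be split between them.

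Mrpl45 (chr11:97315716-97329920) encodes the protein at the exit of the nascent chain tunnel that holds the ribosome to the inner membrane. Female vehicle mice had 34.7, 41.4 and 42.7 CPM and female LLC1 mice 29.7, 30.7 and 35.5 CPM. Male vehicle mice had 34.4, 36.7 and 38.9 CPM and male LLC1 mice 26.57, 30.04 and 35.42 CPM. Again 5 of 6 LLC1 mice in each sex lay under the whole vehicle group. Mrpl45 fell by 21.5% in females (log2 -0.35, SE 0.07, edgeR adjusted p = 0.0034) and by 17.1% in males (log2 -0.27, SE 0.07, adjusted p = 0.0061). Both calls held without each single library.

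Mrpl12 (chr11:120484613-120489065) encodes the stalk protein that brings translation factors to the ribosome and is also known to bind the mitochondrial RNA polymerase. Its lowest, median and highest levels were 64.97, 77.68 and 83.21 CPM in female vehicle and 49.0, 59.0 and 71.0 CPM in female LLC1 mice. In males they were 59.0, 65.7 and 72.6 CPM with vehicle and 41.8, 53.0 and 69.2 CPM with LLC1. In each sex 1 LLC1 mouse, female 2-5 and male 1-4, stayed within the vehicle range. Mrpl12 fell by 0.36 in females (SE 0.10, edgeR adjusted p = 0.023) and by 0.30 in males (SE 0.10, adjusted p = 0.020). The call in females was lost without LLC1 mice 1-4, 1-5 or 2-3 or vehicle mice 2-1, 2-2 or 2-3, and that in males without LLC1 mice 1-5 or 2-4. The antisense gene Gm16755 overlaps 13.1% of its exons, and without strand its reads cannot be told apart there. The stalk base proteins Mrpl10 and Mrpl11, to which Mrpl12 is joined, were not called by edgeR, at -0.16 and -0.12 in females and 0.07 and 0.13 in males. By limma-voom Mrpl10 was called lower in females (-0.20).

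Mrpl42 (chr10:95480806-95501927), the most abundant of the 77 by either measure, ranged from 130 to 177 CPM in female vehicle (median 163) and from 103 to 147 CPM in female LLC1 mice (median 117). In males it ranged from 127 to 154 CPM with vehicle (median 144) and from 98.7 to 151 CPM with LLC1 (median 108). Most LLC1 mice, 5 females and 4 males, lay below every vehicle mouse of their sex. It fell by 0.41 in females (SE 0.11, edgeR adjusted p = 0.016) and by 0.27 in males (SE 0.11, adjusted p = 0.045). The call in females was lost without LLC1 mice 1-4, 1-5 or 2-3 or vehicle mice 2-1 or 2-3 (-0.35 to -0.36). That in males was lost without LLC1 mice 1-5, 2-1, 2-4 or 2-5 or any vehicle mouse but 2-5 (-0.23 to -0.29).

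Mrpl19 (chr6:81957851-81965958) encodes a protein at the face where the subunits meet. Female vehicle mice had 15.4, 16.4 and 17.7 CPM and female LLC1 mice 11.4, 14.4 and 14.8 CPM. Male vehicle mice had 15.7, 16.5 and 18.4 CPM and male LLC1 mice 9.25, 11.8 and 15.5 CPM. The LLC1 and vehicle mice did not overlap in either sex. Mrpl19 fell by 27.6% in males (log2 -0.47, SE 0.09, edgeR adjusted p = 0.00051), and the value in females was -0.26 (SE 0.09, edgeR adjusted p = 0.063). That value passed by DESeq2 (-0.25), by limma-voom (-0.26) and in edgeR with only the 12 female libraries (-0.26). Mrpl19 shares 36.0% of its exon length with Gcfc2, which has 5494 counts, and reads of that gene may be among its counts.

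Mrpl39 (chr16:84717576-84735742), specific to mitochondria, measured 15.4 to 18.3 CPM in female vehicle (median 17.2) and 13.2 to 16.9 CPM in female LLC1 mice (median 13.9). In males it measured 15.4 to 19.0 CPM with vehicle (median 16.5) and 12.73 to 16.01 CPM with LLC1 (median 13.5). In each sex 5 of 6 LLC1 mice lay under all vehicle mice. Mrpl39 fell by 0.24 in females (SE 0.07, edgeR adjusted p = 0.034) and by 0.27 in males (SE 0.07, adjusted p = 0.0061). The call in females was lost without LLC1 mice 1-4, 1-5, 2-3 or 2-4, any vehicle mouse but 1-1, male LLC1 mouse 2-1 or male vehicle mouse 1-3 (-0.20 to -0.23), and that in males held without each library.

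**Figure D1:**
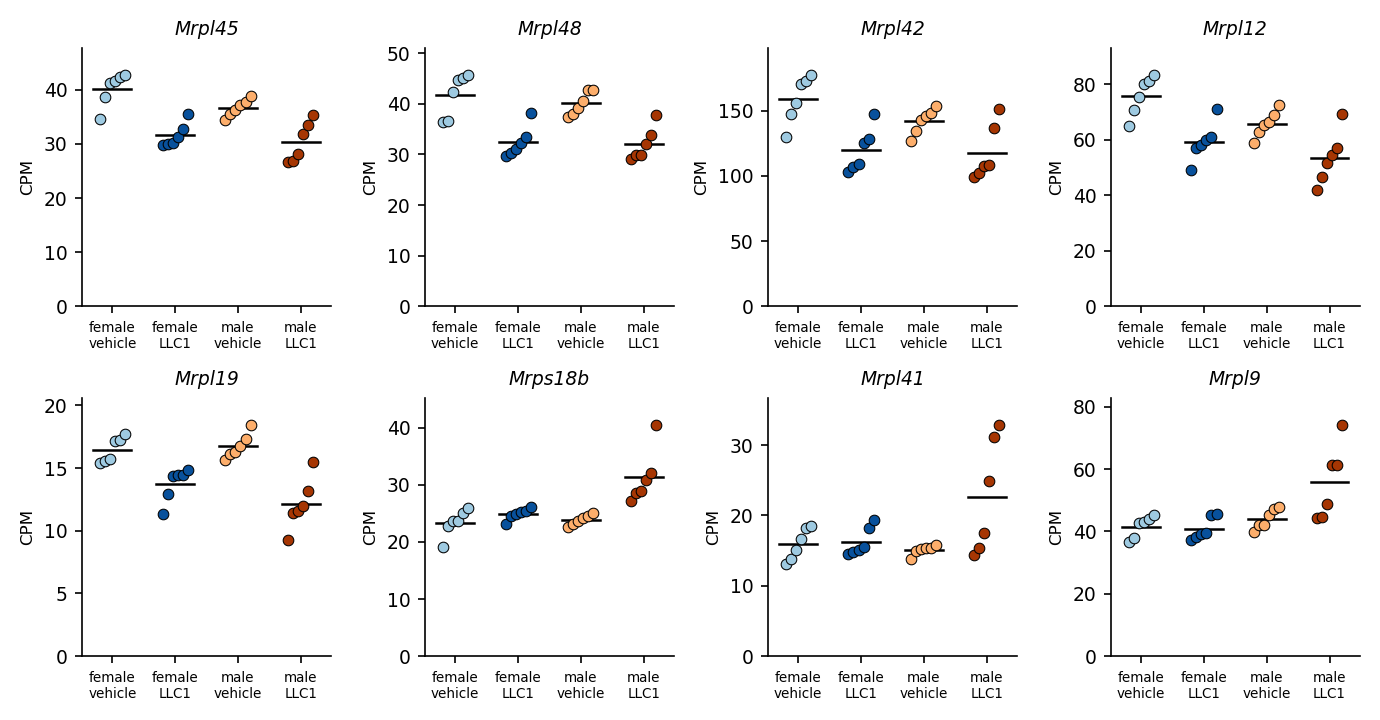
CPM of 8 mitochondrial ribosomal protein genes by mouse (points) in the 4 groups of 6, with the group mean as a line and a linear axis from 0 for each gene. Mrpl45, Mrpl48, Mrpl42, Mrpl12 and Mrpl19 sit lower with LLC1 in both sexes, whereas Mrps18b, Mrpl41 and Mrpl9 sit higher with LLC1 in males.

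In females 13 genes fell and 0 rose by edgeR, against a background of 4.95% of all tested genes lower and 4.97% higher. At an unadjusted p under 0.05, 34 were lower and 0 higher. Of the 17773 tested genes 4534 passed at that level, both directions together. DESeq2 called 15 lower and 0 higher, and limma-voom with sample weights called 42 lower and 0 higher. The median was -0.16, with 72 of 77 below 0. The 5 above 0 were Mrps30 (0.13), Mrps18b (0.09), Mrpl41 (0.03), Mrps26 (0.02) and Mrpl38 (0.02), none of them called by edgeR. Beside the genes described singly above, Mrps22 (-0.31, SE 0.09, edgeR adjusted p = 0.036) and Mrpl28 (-0.38, SE 0.12, adjusted p = 0.038) fell. Mrps22 is a small-subunit protein and Mrpl28 has a bacterial homologue. Mrpl16 (-0.26), Mrps27 (-0.20), Mrpl15 (-0.20), Mrps28 (-0.34), Mrpl35 (-0.26) and Mrpl13 (-0.27) passed with edgeR adjusted p from 0.038 to 0.042. Of the 8 genes with the smallest p in females, Mrpl45 and Mrpl48 kept the call without each library and the other 6 did not. The farthest value from 0, Mrpl34 at -0.45, did not pass in edgeR (SE 0.18, adjusted p = 0.11) and was called lower by limma-voom (-0.59). The count of 13 rests on single libraries: it was 2 when LLC1 females 1-4, 1-5 or 2-3 or vehicle females 2-1 or 2-3 were each left out, 3 without vehicle mouse 2-2, 4 without vehicle mouse 1-3, 8 without vehicle mouse 1-4 and 22 without LLC1 mouse 2-5. It was also 4 without male LLC1 mouse 2-1 or male vehicle mouse 1-3. These enter the comparison in females only through the shared filter, scaling, estimate of the spread and adjustment of p.

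In males 10 genes fell and 6 rose, against a background of 16.8% of all tested genes lower and 19.5% higher, so the shares of the 77 genes (13.0% and 7.79%) lay below the background in both directions. The median was -0.00, and 39 of 77 lay below 0. The sign of that median changes with the scaling: it was 0.0034 in DESeq2 and 0.002 with RLE size factors. Mrpl48, Mrpl45, Mrpl19, Mrpl39, Mrpl12 and Mrpl42 all fell in males. The others that fell were Mrpl18 (-0.33, SE 0.11, edgeR adjusted p = 0.021), Mrps27 (-0.17), Mrpl49 (-0.20) and Mrpl28 (-0.31). Mrpl18 shares 10.1% of its exon length with Tcp1, which has 175489 counts, and Tcp1 rose in males (0.21). The count of 10 was 5 without LLC1 mouse 1-5 and 6 without LLC1 mouse 2-1 or 2-4 or vehicle mouse 1-4 or 2-4. It was 15 without LLC1 mouse 1-4.

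The genes that rose in males were Mrps18b, Mrpl41, Mrpl9, Mrpl38, Mrpl32 and Mrps30, and 5 of these 6 belong to the large subunit, since Mrps30 is a large-subunit protein despite its name. Mrps18b (chr17:35910379-35916389) encodes 1 of the 3 relatives of bacterial ribosomal protein S18. It measured 22.5, 23.9 and 25.1 CPM in male vehicle and 27.1, 29.9 and 40.4 CPM in male LLC1 mice. All LLC1 males lay above all vehicle males, with LLC1 mouse 1-5 highest by a wide margin. Mrps18b rose by 31.4% in males (log2 0.39, SE 0.08, edgeR adjusted p = 0.00076), and no single library ended the call. Mrps18b shares 30.5% of its exon length with Gm16279, which has 11059 counts, so part of its counts may be reads of that gene. In females Mrps18b measured 19.14, 23.68 and 25.98 CPM with vehicle and 23.2, 25.1 and 26.2 CPM with LLC1 (log2 0.09, edgeR adjusted p = 0.50). Its relatives were not called by edgeR: Mrps18a, a large-subunit protein, stood at -0.00 in females and 0.10 in males, and Mrps18c, the small-subunit counterpart of the bacterial protein, at -0.30 and 0.11. By limma-voom Mrps18c was called lower in females (-0.40). The value of Mrps18a in females changes sign with the scaling.

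Mrpl41 (chr2:24974117-24975098) had the highest rise of the 77 in males. Vehicle males were tight, at 13.8, 15.3 and 15.8 CPM, and LLC1 males wide, at 14.4, 21.2 and 32.8 CPM. LLC1 mice 2-1 (32.8 CPM), 1-5 (31.1 CPM) and 2-4 (24.9 CPM) stood far above the vehicle range, mouse 1-4 (17.6 CPM) just above it, and 2-2 and 2-5 within it. Mrpl41 rose by 0.59 (SE 0.16, edgeR adjusted p = 0.0064), against 0.03 in females (adjusted p = 0.93). The same mouse 1-5 held the highest LLC1 level of Mrpl9, a large-subunit protein with a bacterial homologue. Mrpl9 went from 39.96, 43.66 and 47.77 CPM in vehicle males to 44.31, 55.01 and 74.04 CPM in LLC1 males, with 4 of 6 above all vehicle mice. It rose by 0.34 (SE 0.10, edgeR adjusted p = 0.012) and stood at -0.02 in females (adjusted p = 0.91).

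Mrpl38 (chr11:116131817-116138868), of the central protuberance like Mrpl48, went the other way from it in males. Vehicle males had 26.1, 29.1 and 30.8 CPM and LLC1 males 31.5, 32.7 and 38.1 CPM. These groups did not overlap. Mrpl38 rose by 0.23 (SE 0.07, edgeR adjusted p = 0.012), with 0.02 in females (adjusted p = 0.90). Mrpl32, which is matured by the m-AAA protease before it joins the large subunit, ranged over 15.2 to 21.7 CPM in vehicle males and over 18.6 to 31.3 CPM in LLC1 males. It rose by 0.37 (SE 0.12, edgeR adjusted p = 0.019), a call that ended without LLC1 mouse 1-5 (0.27, adjusted p = 0.075). Mrps30 measured 16.04 to 20.50 CPM in vehicle males, 16.7 to 27.2 CPM in LLC1 males, and rose by 0.29 (SE 0.10, adjusted p = 0.024). It lost the call without male LLC1 mice 1-5, 2-1 or 2-4 or vehicle mice 1-1 or 1-3.

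Across both sexes 7 genes fell in each: Mrpl45, Mrpl48, Mrpl42, Mrpl12, Mrpl39, Mrpl28 and Mrps27. Of all tested genes 4.95% fell in females and 16.8% in males, and the share that fell in both was not counted. A further 6 passed in females alone and 3 in males alone, which does not show that they differ between the sexes. The 2 comparisons share no library. Of the 77 genes 39 lay below 0 in both sexes, 5 above 0 in both, and 33 below 0 in females and above 0 in males, with 0 the other way round. The change in males minus that in females was above 0 for 70 of 77, at a median of 0.14 against 0.015 over all tested genes. No gene was called for that difference by edgeR, with a background of 0% of all tested genes in either direction. An unadjusted p under 0.05 was found for 14 of the 77, all above 0, and for 2191 of the 17773 tested genes. DESeq2 and limma-voom called 0 of the 77 as well. The smallest p values were those of Mrps28 (0.41, SE 0.15, edgeR adjusted p = 0.30) and Mrps18b (0.30, SE 0.11, adjusted p = 0.31).

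**Figure D2:**
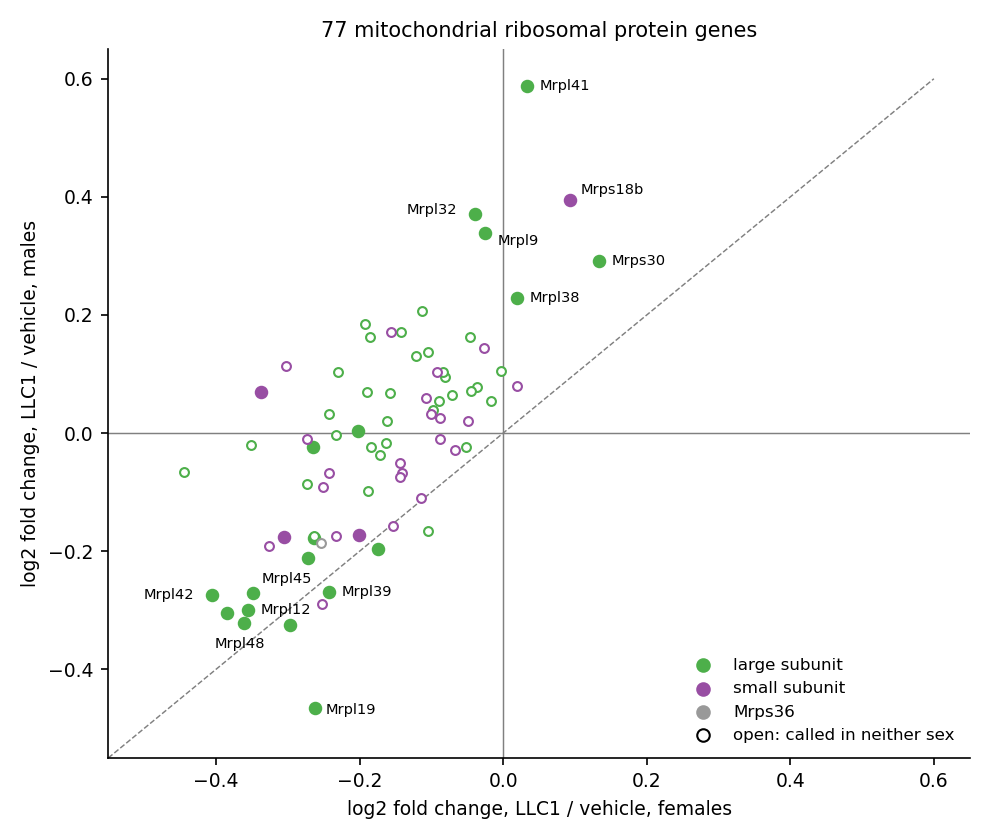
Log2 fold change of LLC1 against vehicle in females (horizontal) and males (vertical) for the 77 genes, coloured by subunit, filled where called in either sex, with equal change on the dashed line. Most points lie above the dashed line and left of 0, and the genes that fell in both sexes lie at the lower left.

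Both subunits held genes that fell. Averaged over the sexes, 15 of 50 large-subunit genes fell and 3 rose (median -0.07), and 9 of 26 small-subunit genes fell and 1 rose (median -0.10). The shares were 30% and 34.6% lower and 6% and 3.85% higher, against 20.2% lower and 21.2% higher of all tested genes. In females 10 large-subunit (20%) and 3 small-subunit genes (11.5%) fell, against 4.95% of all tested genes. In males 9 large-subunit genes fell (18%) and 5 rose (10%), against 1 and 1 of the small subunit (3.85% each). Of all tested genes 16.8% fell and 19.5% rose there, so the large-subunit falls lay near that share and the other shares below it. Of the 46 genes with a bacterial homologue 12 fell (26.1%) and 0 rose averaged over the sexes, by edgeR, and all 46 lay below 0 in females. All 4 that rose, Mrps18b, Mrps30, Mrpl41 and Mrpl38, encode proteins counted here as specific to mitochondria. Mrps18b is counted so too, as Mrps18c takes the place of bacterial S18. Of the 30 genes specific to mitochondria 12 fell (40%), and the 4 that rose are 13.3%. In males 2 of the 46 rose (4.35%), Mrpl9 and Mrpl32, and 4 of the 30 (13.3%), against 19.5% of all tested genes. The decoding site protein Mrps12 was near 0 in both sexes (-0.09 and -0.01), and Mrps7 of the small-subunit head stood at -0.14 and -0.05. Mrpl44, a large-subunit protein with an RNase III fold, stood at -0.02 and 0.05. None of the 3 was called by edgeR, and limma-voom called Mrps7 lower in females (-0.22). Mrps36, the former ribosomal name, was not called in either sex by edgeR (-0.25 and -0.19), was called lower in females by limma-voom (-0.31), and fell averaged over the sexes (-0.22, SE 0.07, edgeR adjusted p = 0.011).

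Single mice stood apart over many of the genes at once. Female vehicle mouse 1-1 held the lowest level of its group in 59 of 77 genes, and female LLC1 mouse 2-5 the highest of its group in 54. In female LLC1 mouse 2-3, 37 genes were the lowest of the group. Male LLC1 mouse 1-5 was the highest in 23 genes and the lowest in 20, while mouse 1-4 was the highest in 34. The sum over the 77 genes was 2104 to 2608 CPM in female vehicle (mean 2415 ± 206, SD, n = 6) and 1889 to 2448 CPM in female LLC1 mice (2118 ± 211). It was 2151 to 2349 CPM in male vehicle (2254 ± 81.9) and 2036 to 2388 CPM in male LLC1 mice (2214 ± 118).

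The first number of a mouse's title, whose meaning the labels do not give, split the female vehicle group. The 3 mice numbered 1 had 2104 to 2310 CPM over the 77 genes and the 3 numbered 2 had 2553 to 2608 CPM. In that group 74 of 77 genes were higher in the mice numbered 2, at a median of 0.21. There 1 was called higher, with a background of 0.748% of all tested genes higher and 1.14% lower. In female LLC1 mice 70 of 77 were higher in number 2 (median 0.11), in male vehicle mice 37 (-0.01) and in male LLC1 mice 17 (-0.12). In these groups 0 of all tested genes were called. Male LLC1 mice summed to 2287 to 2388 CPM for number 1 and to 2036 to 2213 CPM for number 2. LLC1 females lay under all vehicle females of the same number, at 1988 to 2009 CPM for number 1 and 1889 to 2448 CPM for number 2. The median change of the 77 genes in females was -0.15 among mice numbered 1 and -0.23 among those numbered 2. In males it was 0.09 and -0.03. These splits were chosen after the data were seen, and counts of calls within them stand in the closing section.

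**Figure D3:**
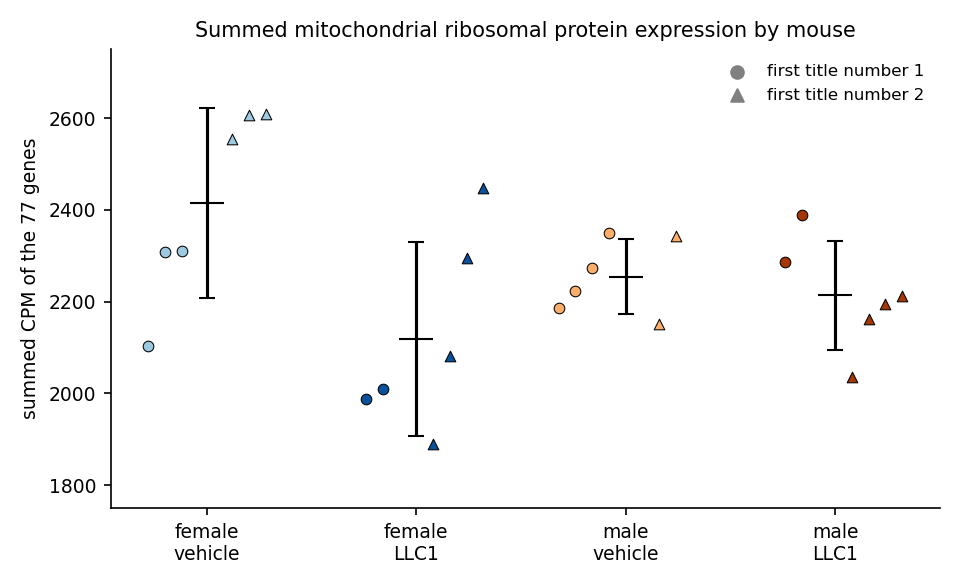
Summed CPM of the 77 genes in each mouse (circles, first title number 1, triangles, first title number 2), with the mean and SD of the 6 mice of each group. The axis does not start at 0; female LLC1 mice lie under the vehicle mice of the same first number, and the male groups overlap.

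Among vehicle mice the sexes differed little in these genes. Males against females, 1 gene was lower and 0 were higher by edgeR, with a background of 2.95% lower and 3.28% higher. With an unadjusted p under 0.05, 11 were lower and 0 higher, and 3610 of the 17773 tested genes passed in either direction. DESeq2 called 3 lower and limma-voom 8 lower, and neither called any higher. The median was -0.09, with 63 of 77 below 0. The gene called was Mrps6, at 7.31, 8.47 and 10.3 CPM in female and 5.97, 6.33 and 6.96 CPM in male vehicle mice, groups that do not overlap. Its log2 difference, males minus females, was -0.42 (SE 0.10, edgeR adjusted p = 0.0078). The count of 1 was 2 or 3 without female LLC1 mice 2-1, 2-3, 2-4 or 2-5, male LLC1 mice 1-5 or 2-2, or male vehicle mouse 1-4. Mrps6 shares 10.4% of its exon length with Slc5a3, which stood at -0.60 (adjusted p = 0.10), so part of its counts may be reads of that gene. Mrpl34, whose vehicle groups did not overlap either, stood at -0.59 (edgeR adjusted p = 0.050) and was not called. Slow-fibre markers, 0 of 6 of them called, had a median of -1.24 in the same comparison, and their part in it was not tested.

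Other ribosomal proteins of mitochondria whose symbols do not begin with Mrp moved down where they moved. Of 6, females showed 2 that fell and males 1, and 3 fell averaged over the sexes. Ptcd3, an mRNA-binding protein of the small subunit, fell in both sexes (-0.31, SE 0.08, and -0.39, SE 0.08, edgeR adjusted p = 0.016 and 0.00077). Ict1, the large-subunit protein that can release stalled chains, fell in females (-0.26) and Chchd1 fell averaged over the sexes (-0.24). Dap3, a GTP-binding protein of the small subunit, was not called (-0.12 and -0.07).

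Assembly factors were mixed, the factors of translation lower. Of 24 genes for assembly and rRNA modification, 1 rose and 1 fell in females, 6 rose and 1 fell in males, and 6 rose and 5 fell averaged over the sexes. Of all tested genes 4.97% rose and 4.95% fell in females, 19.5% and 16.8% in males, and 21.2% and 20.2% averaged over the sexes. The assembly shares were near these in females (4.17% each way) and averaged over the sexes (25% and 20.8%), and were 25% and 4.17% in males. Malsu1, which keeps the new large subunit from joining the small one too early, rose in males (0.63, SE 0.12, edgeR adjusted p = 0.00051), and C1qbp rose in both sexes (0.27 and 0.29). Of 17 translation factors 4 fell in females and 8 in males, and averaged over the sexes 10 fell, with none higher by edgeR in these comparisons. Taco1, an activator of cytochrome oxidase translation, fell by 0.52 in females (SE 0.09) and 0.61 in males (SE 0.09, edgeR adjusted p = 6.3e-05). Qrsl1, which works in making glutaminyl-tRNA, fell by 0.44 and 0.48, and the elongation factor Tufm by 0.18 and 0.21. Lrpprc, which stabilises mitochondrial mRNAs, fell in males (-0.17) and not in females (-0.08). Of the 17 mitochondrial aminoacyl-tRNA synthetases, which load tRNAs, 1 fell in females, 5 fell and 2 rose in males, and 8 fell and 1 rose averaged over the sexes, with Cars2 and Sars2 lower (-0.29 and -0.33) and Ears2 higher (0.22).

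Genes that act on the mitochondrial genome and on nuclear genes for mitochondrial proteins did not follow the ribosomal proteins as 1 group. Of 9 genes for copying and transcribing mitochondrial DNA, Mterf2 fell in both sexes (-0.53 and -0.95, edgeR adjusted p = 0.039 and 0.00018). Ssbp1, Polrmt and Tfb2m rose in males (0.42, 0.29 and 0.25), and Tfam was not called (-0.07 and -0.06). Of 9 regulators, 3 rose and 0 fell in females by edgeR, with 2 lower at an unadjusted p under 0.05 and 1 lower by DESeq2 and by limma-voom. In males 5 rose and 3 fell. Nrf1, the factor of the motif searched above, rose in males (0.39, SE 0.07, edgeR adjusted p = 0.00020) and stood at 0.19 in females (adjusted p = 0.076). Gabpa rose in males (0.22) and stood at -0.02 in females. The coactivator Ppargc1a fell in males (-0.35, SE 0.12, edgeR adjusted p = 0.024) and was not called in females (-0.17), Ppargc1b fell in males by 1.14 and Esrra by 0.60, while Myc rose in both sexes (1.08 and 1.15).

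The cytosolic ribosomal proteins and the subunits of complex I, the entry point of electrons from NADH, are given beside the 77 genes. Of 78 cytosolic ribosomal protein genes, 71 rose and 0 fell in males (median 0.34), with 73 higher and 0 lower at an unadjusted p under 0.05 and 0 lower by DESeq2 and limma-voom. In females edgeR called 0 of the 78 in either direction (median 0.03, 2 higher and 0 lower at an unadjusted p under 0.05). DESeq2 called 0 there too, and limma-voom called 2 higher and 1 lower. Of 37 complex I genes, 25 fell in females (median -0.36) and 11 in males (median -0.22), and none rose by edgeR, DESeq2 or limma-voom or at an unadjusted p under 0.05 in edgeR. The mitochondrial ribosomal protein genes had medians of -0.16 and -0.00. The difference between these lists was not tested.

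**Figure D4:**
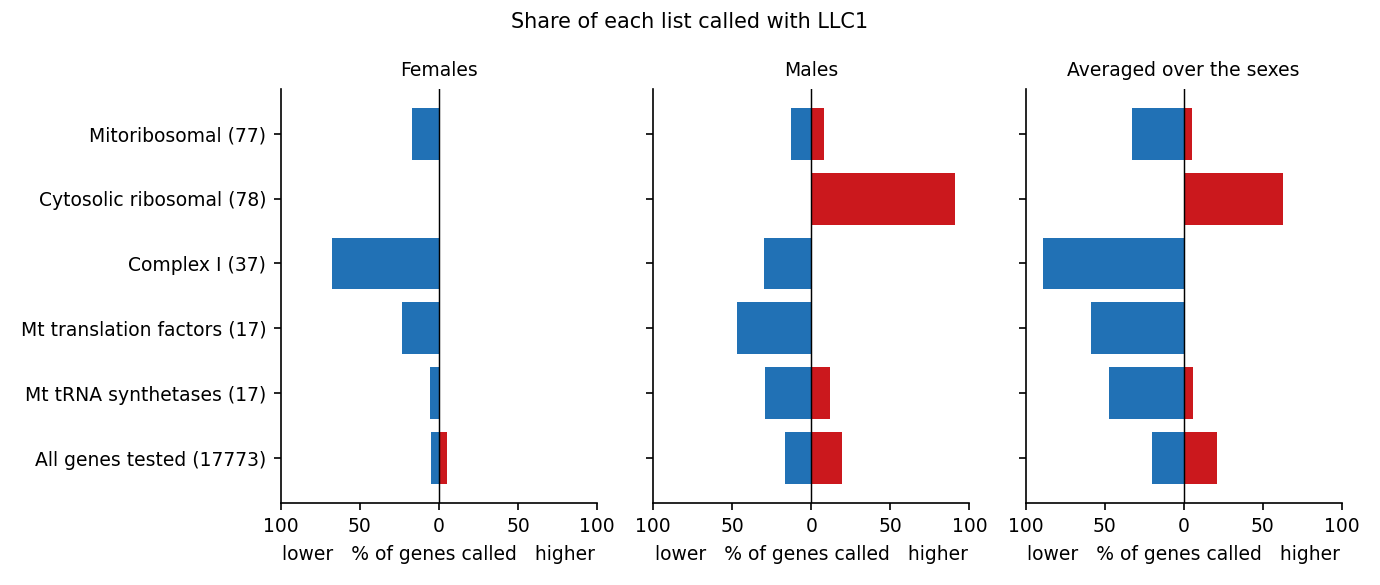
Percent of the genes of each list called lower (left) or higher (right) with LLC1, in panels for females, males and the average of the sexes, with the number of genes tested in brackets. Mitochondrial ribosomal protein genes are at 16.9% lower and 0% higher in females and 13.0% lower and 7.79% higher in males, beside 67.6% lower for complex I in females and 91.0% higher for cytosolic ribosomal proteins in males.

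Some of the 77 genes begin close to the start of a gene on the opposite strand. For 37 of them such a gene starts within 1000 bases, either pointing apart or overlapping at the starts. The share of all genes with such a neighbour was not counted. The pair did not always move together. Psma2, a proteasome subunit gene that starts 75 bases from Mrpl32, rose in males by 0.76 (edgeR adjusted p = 0.0020) beside the 0.37 of Mrpl32. Pnpla7, 935 bases from Mrpl41, rose in both sexes (0.58 and 0.81), whereas Mrpl41 rose in males only by the threshold. Fau, a cytosolic ribosomal protein gene 59 bases from Mrpl49, rose in males (0.39) where Mrpl49 fell (-0.20). Sars2 starts 172 bases from Mrps12 and fell in both sexes (-0.34 and -0.31), with Mrps12 not called. Ppp1r10, 45 bases from Mrps18b, was not called (-0.21 and 0.15).

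Overlapping genes could affect the counts of 12 of the 77, though single reads were not examined. These are the genes whose exons overlap by 10% or more a gene whose counts reach 0.5 times their own. They include Mrpl12, Mrpl18, Mrpl46, Mrpl47, Mrps6 and Mrps34. Mrps18b, Mrpl19, Mrps27 (24.2%, with 6430562O15Rik) and Mrpl10 (14.1%, with Gm11574) also overlap a gene, but 1 below that count ratio, and stay with the others. Among the 65 others, 12 fell and 0 rose in females, 8 fell and 6 rose in males, and 21 fell and 4 rose averaged over the sexes. Mrpl33 was not found in the annotation used for this check.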

How the data were processed

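RNA-seq of 24 mouse muscle libraries was deposited as 1 table of raw counts per gene, made by the authors with CASAVA, STAR and featureCounts on mm10, per the submitters' processing notes, with versions and strand setting not given in the sources used here. Per the labels' protocols, libraries were made with TruSeq version 2 and 12 PCR cycles, a kit known not to mark strand. Library pairs of a group differed by more than sampling noise (chi-square per degree of freedom 10.05 to 211.2), and each counts as 1 replicate.

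Genes were filtered with filterByExpr, scaled by TMM (factors 0.924 to 1.10) and tested with edgeR 4.0.16 (R 4.3.3, quasi-likelihood, robust) in 1 model of 4 group means over the 24 libraries (20 residual degrees of freedom). The calculation was tested on simulated data. Alternatives were RLE and upper-quartile factors, no filter, DESeq2 1.42.0, limma-voom (limma 3.58.1), only the 12 libraries compared, title numbers as blocks, and each library left out. Title numbers were not used as pairs in the main model. Exon overlaps used the GENCODE annotation given for mm10, promoters the RefSeq table.

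Members and lists were chosen with earlier results of these data known. Named are the 8 called members with the smallest p in each direction and the 3 largest changes of each comparison, the 5 highest and 3 lowest per kb, members fixed by role, and up to 3 called genes of each other list plus 8 chosen by name. Neighbours and overlapping genes were named by position. Twnk, of the list for mitochondrial DNA, is named Peo1 in the count table. It was not matched and is not among the 9 genes of that list.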

Additional observations from a re-analysis of the deposited data

Results flagged for a closer look

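Among the mitochondrial ribosomal protein genes named above, 9 of 112 groups of 6 mice held 1 mouse far from the other 5, a gap past Dixon's critical value. Chance gives about 1 in 20 such groups.

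Of these 9, 3 were male LLC1 mouse 1-5. Mrpl10 stood at 34.1 CPM there against 23.2 to 27.1 CPM in the other male LLC1 mice. Mrpl11 stood at 35.9 CPM against 25.8 to 28.9 CPM, and Mrps18b at 40.4 CPM against 27.1 to 32.1 CPM. Mrpl10 and Mrpl11 encode the stalk base and were called in neither sex by edgeR, while limma-voom called Mrpl10 lower in females (-0.20).

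Mrpl39 had a high mouse in both male groups, vehicle mouse 2-4 at 19.0 CPM against 15.4 to 16.7 CPM and LLC1 mouse 1-4 at 16.01 CPM against 12.7 to 13.9 CPM. Among male vehicle mice Mrps7 was high in mouse 1-4 (50.2 CPM against 45.5 to 46.5 CPM). Mrps27 was low in mouse 1-3 (23.6 CPM against 26.04 to 26.93 CPM). In females Mrpl10 was low in vehicle mouse 1-1 (24.8 CPM against 26.5 to 27.4 CPM), and Mrps30 was high in LLC1 mouse 2-4 (23.1 CPM against 18.53 to 19.97 CPM).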

How the results depend on the processing

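The medians of the 77 genes stayed below 0 in females and averaged over the sexes under every alternative run. With another scaling, filter, tool, sample set or block they were -0.15 to -0.23 in females, -0.09 to -0.14 averaged over the sexes and -0.06 to 0.09 in males. With 1 library left out they were -0.21 to -0.11, -0.11 to -0.07 and -0.02 to 0.02. Counts of called genes moved more. Lower in females, 13 genes became 4 without a filter on low counts, 42 by limma-voom (with 12.1% of all genes then lower and 10.4% higher) and 2 to 22 with 1 library left out. Lower in males, 10 became 6 without the filter and 5 to 15 with 1 library left out, and the 6 that were higher became 4 to 7. Averaged over the sexes, 25 lower became 39 by limma-voom and 17 to 31 with 1 library left out, and 4 higher became 2 by limma-voom and 2 to 5. Lower in vehicle males than in vehicle females, 1 became 3 by DESeq2, 8 by limma-voom and 4 with only the 12 libraries compared. That count was 1 to 3 with 1 library left out. It was 0 without the genes whose exons overlap a gene with at least their own counts, a narrower set than that of the overlap check.

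Same-numbered LLC1 and vehicle mice did not deviate together (correlations 0.07, -0.23 and -0.17 in females, -0.06, -0.02 and -0.01 in males). They were not treated as pairs in the main model. These few pairs cannot settle what the title numbers mark. With the full title number as a replicate block, 3 genes were lower in females, 1 was higher in males, and 14 were lower and 0 higher averaged over the sexes by edgeR. With the first title number as a replicate block 2 were higher averaged over the sexes. Within mice numbered 1, a split chosen after the data were seen, 0 were lower in females and 1 in males by edgeR. Within mice numbered 2, 0 were higher and 3 lower in males.

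Changes of sign concerned values near 0 that were not called. In females Mrpl41 was -0.0356 by limma-voom, -0.081 with the full block, -0.0754 within number 2 and -0.0225 to 0.0987 with 1 library left out. Mrpl38 was -0.035, -0.0742, -0.0345 within number 1 and -0.0324 to 0.0624. Mrps18a was 0.0031 with RLE factors, 0.0076 without the filter, 0.0062 by DESeq2, 0.0029 with only the 12 libraries, 0.0252 within number 1 and -0.0494 to 0.0553. Within number 1 Mrpl32 was 0.0671 and Mrps12 0.0953, within number 2 Mrpl44 was 0.0147, and with the full block Mrps30 was -0.0394. With 1 library left out Mrpl9 was -0.059 to 0.0211, Mrpl32 -0.0889 to 0.0384 and Mrpl44 -0.099 to 0.0363. In males Mrpl44 was -0.0418 within number 2, Mrps12 0.0363 within number 1 and -0.0365 to 0.0226 with 1 library left out, Mrpl34 -0.1635 to 0.0215 and Mrpl10 -0.0214 to 0.1019. The cause of these changes was not tested.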
